A study of Homo sapiens with 8 samples.

Results

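The genes described here encode the proteins of the mitochondrial ribosome. They were chosen by name, as every listed gene whose symbol is MRPL or MRPS followed by a number. Of 79 such names, 2 belonged to pseudogenes of MRPS31 (MRPS31P4 and MRPS31P5) and were left out, which gave 77 genes of the 16295 listed. MRPL names, for proteins of the large subunit, made up 48 of them, and MRPS names, for the small subunit, made up 29. All 77 had enough reads to be tested. RNA came from MM1.S, a human plasma-cell line established from multiple myeloma, in 8 libraries with 2 per group. The groups were the solvent DMSO and 0.5 uM of MS177, MS177N1 or C24, each for 24 h, with no other agent named for any of them. As background, the degrader MS177 recruits the ubiquitin ligase receptor CRBN to EZH2, the enzyme of a Polycomb complex that methylates histone H3. C24 is the EZH2 inhibitor it was built from, and MS177N1 is a related control compound that does not degrade EZH2. The libraries represent 1 cell line, and whether 2 replicates came from separate cultures is not stated. Tests here are thus measured against a spread between samples that may be technical only.

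The mitochondrial ribosome translates the few messenger RNAs of the mitochondrial genome, all of which encode core subunits of the respiratory chain and the ATP synthase. Its ribosomal RNAs come from mitochondrial DNA, whereas its proteins are encoded in the nucleus, made in the cytosol and imported. The small subunit binds the messenger RNA and decodes it, and the large subunit joins the amino acids and leads the new chain through an exit tunnel to the inner membrane. Many of its proteins descend from those of bacterial ribosomes, and others were added during the evolution of mitochondria. Myeloma cells secrete large amounts of immunoglobulin, and inhibitors of mitochondrial translation are used as research tools in blood cancers.

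The promoters of these genes were read for 4 short motifs. RefSeq promoter windows on GRCh38.p14, from 250 bases before to 50 bases after the annotated start, were matched for 68 of the 77 genes and searched on both strands. AAGATGGCG, a sequence recognised by the zinc-finger factor YY1, was in 13 of the 68 windows (19.1%), against 1.85% of all 27305 windows and 3.81% of the windows of genes listed in these data. CCGGAAGT, the core bound by ETS factors, was in 11 (16.2%), against 4.44% of all windows and 8.49% of those of listed genes. GCATGCGC, the core of the motif of NRF1, a regulator of nuclear genes for mitochondrial proteins, was in 6 (8.82%), against 3.27% and 5.38%. CACGTG, the E-box bound by MYC and related factors, was also in 6 (8.82%), against 7.43% and 10.1%, so its share lay between those of the 2 wider sets. A match is a description of these letters and not a measured binding site.

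In 10 of the 13 windows the YY1 letters stood on the coding strand within 40 bases after the start (14.7% of the 68 windows, against 1.06% of all windows and 2.49% of those of listed genes). These 10 are shown because they show the shared place, with the 9 motif bases in capitals.
MRPL22, chr5:154941093-154941122, plus strand: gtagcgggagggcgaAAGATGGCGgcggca
MRPL38, chr17:75904859-75904888, minus strand: ggccggagggAAGATGGCGgcgccctggtg
MRPL42, chr12:93467512-93467541, plus strand: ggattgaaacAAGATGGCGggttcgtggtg
MRPL46, chr15:88467361-88467390, minus strand: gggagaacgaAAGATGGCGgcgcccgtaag
MRPL50, chr9:101398576-101398605, minus strand: gatctcatcgAAGATGGCGgcgcgatctgt
MRPS10, chr6:42217833-42217862, minus strand: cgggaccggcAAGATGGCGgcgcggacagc
MRPS18A, chr6:43687763-43687792, minus strand: taggtttttgAAGATGGCGgccctcaaggc
MRPS18B, chr6:30617853-30617882, plus strand: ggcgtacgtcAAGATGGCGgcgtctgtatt
MRPS24, chr7:43869479-43869508, minus strand: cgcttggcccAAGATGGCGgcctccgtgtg
MRPS30, chr5:44808950-44808979, plus strand: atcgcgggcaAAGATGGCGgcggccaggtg
The ATG inside the capitals is an annotated start codon in 9 of the 10, the exception being MRPL42. The capitals begin between 6 bases (MRPL38) and 35 bases (MRPL22) after the start, counting the start as 0. This set includes 2 genes that were higher with MS177 (MRPL38 and MRPS18A), 4 that were not called (MRPL50, MRPS10, MRPS18B and MRPS30) and 4 that were lower (MRPL22, MRPL42, MRPL46 and MRPS24). Across all matched genes, the YY1 letters were in 7 of 47 called lower with MS177 against DMSO (14.9%) and in 6 of the 21 others (28.6%).

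A further pair of promoters is shown, of genes among the 12 largest changes with MS177 whose windows held the same letters more than once. The capitals mark the ETS letters in the first, which holds them at 2 places in the 60 bases before the start, and the NRF1 core in the second, in the 90 bases before the start. In the latter the core occurs 3 times, of which 2 overlap on opposite strands in a palindrome.
MRPL27, chr17:50373185-50373244, minus strand: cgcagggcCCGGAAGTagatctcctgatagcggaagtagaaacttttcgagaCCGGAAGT
MRPL17, chr11:6683341-6683430, minus strand: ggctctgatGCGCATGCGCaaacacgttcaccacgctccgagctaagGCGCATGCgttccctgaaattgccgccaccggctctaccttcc
The ETS letters were in 8 of 47 promoters of genes called lower (17%) and in 3 of the 21 others (14.3%). They also began 44 bases before the start of MRPL20, another of the 12 largest changes, whose promoter is not shown. The NRF1 core was in 4 of 47 (8.51%) and 2 of 21 (9.52%).

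Each library held between 20000665 and 26619099 reads in the listed genes. Levels below are reads divided by the authors' size factors (normalized reads), changes are log2 fold changes of normalized reads plus 1 with their standard error (SE), and a gene is called at a limma adjusted p under 0.05 over 14164 genes tested. All 8 plasma-cell markers sought were listed, and their summed level was 114130 and 115057 normalized reads with DMSO and 89542 and 87764 with MS177. Against DMSO, where 29.0% of all genes tested were called lower and 28.9% higher, 6 of these markers were called lower with MS177, 1 higher and 1 not. SDC1, a surface proteoglycan, had the lowest ratio (28802 ± 506 to 12423 ± 206, SD, n = 2), and the secretory regulator XBP1 was higher (31704 ± 382 to 34195 ± 876, SD, n = 2). Of 8 monocyte or granulocyte markers 4 were listed, with LYZ, FCGR3A, S100A8 and MPO not listed. Their summed level was 29.7 and 33.6 normalized reads with DMSO and 128.6 and 127.2 with MS177, and both tested members, S100A9 and ITGAM, were called higher. CD3E, the 1 listed marker of 4 for T or NK cells, was 75.9 and 61.5 with DMSO and 33.2 and 29.9 with MS177. The 3 erythroid markers gave 1 that was tested, HBB, which was not called. Of 4 stromal, epithelial or endothelial markers tested, COL1A1 was called higher and PECAM1 lower, while EPCAM and KRT18 were not called. COL1A1 had few reads (6 and 15 with DMSO, 47 and 36 with MS177), and COL1A2 was listed but not tested. The part of these shifts in the results below was not tested. In bulk RNA, fewer cells of a kind and less RNA per cell cannot be told apart.

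Summed over genes, messenger RNA for both subunits was lower with MS177 than in the 6 other libraries, and the balance between the subunits stayed within the range of the DMSO libraries. The 48 large-subunit genes summed to 85227 and 81448 normalized reads with DMSO and to 67021 and 61957 with MS177. With MS177N1 they summed to 81030.4 and 80892, and with C24 to 84653 and 82922.5. Both MS177 libraries lay below the other 6, with a mean of 64489 ± 3581 (SD, n = 2), 77.4% of DMSO. The 29 small-subunit genes summed to 49423 and 46388 with DMSO and 38217 and 35664 with MS177, and the mean with MS177 was 77.1% of DMSO. With MS177N1 the small-subunit sums were 46894 and 47118, and with C24 they were 48749.95 and 48281. Large over small was 1.724 and 1.756 with DMSO and 1.754 and 1.737 with MS177, so the MS177 ratios lay inside the DMSO range. It was 1.728 and 1.717 with MS177N1 and 1.736 and 1.718 with C24.

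**Figure D1:**
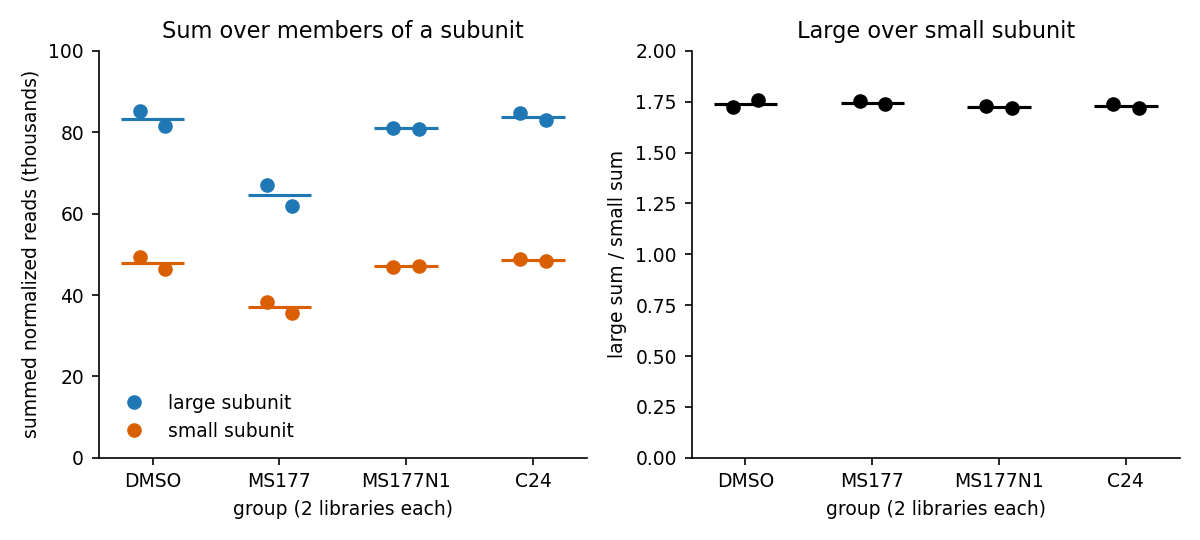
Summed normalized reads per library (left, axis scaled as its label states, for the 48 large- and 29 small-subunit genes) and the ratio of the large to the small sum (right), with 2 libraries per group. Both MS177 sums lie below those of all 6 other libraries, while the MS177 ratios of 1.754 and 1.737 lie within the DMSO range of 1.724 to 1.756.

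The question put to MS177 against DMSO was which of these genes changed when the degrader was added. Of the 77 genes, 56 were called lower (72.7%) and 4 higher, and 17 were not called. Over all genes tested the same calls were 29.0% lower and 28.9% higher. The median log2 fold change of the 77 was -0.37, against 0.0045 over all genes tested, and 65 of the 77 values were negative. Most changes were moderate, since 19 of the 77 genes were called lower by more than 1.5-fold and 1, MRPS26, by more than 2-fold. Over all 14164 genes tested, 1729 were called lower by more than 1.5-fold and 646 by at least 2-fold. In 61 of the 77 (79.2%) both MS177 libraries lay below both DMSO libraries, against 37.3% of all genes tested. In 57 (74%) they lay below all 6 other libraries, against 31.7% of all genes tested.

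The calls were spread over both subunits. In the large subunit 36 of 48 were called lower (75%) and 3 higher, with a median of -0.37 and an interquartile range of -0.58 to -0.20. In the small subunit 20 of 29 were called lower (69%) and 1 higher, with a median of -0.34 and an interquartile range of -0.57 to -0.16. When transcript length and GC content were regressed out, the large-subunit median was -0.24 and the small-subunit median -0.27, with 31 and 18 called lower. In that setting 4191 of the 13027 genes tested were called lower. The genes are short, with a median transcript of 1462 bases against 3108 over the genes tested. Genes with a counterpart in bacterial ribosomes had 36 of 48 called lower and 1 higher (median -0.45), and those without had 20 of 29 lower and 3 higher (median -0.29). The difference between these 2 classes was not tested.

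**Figure D2:**
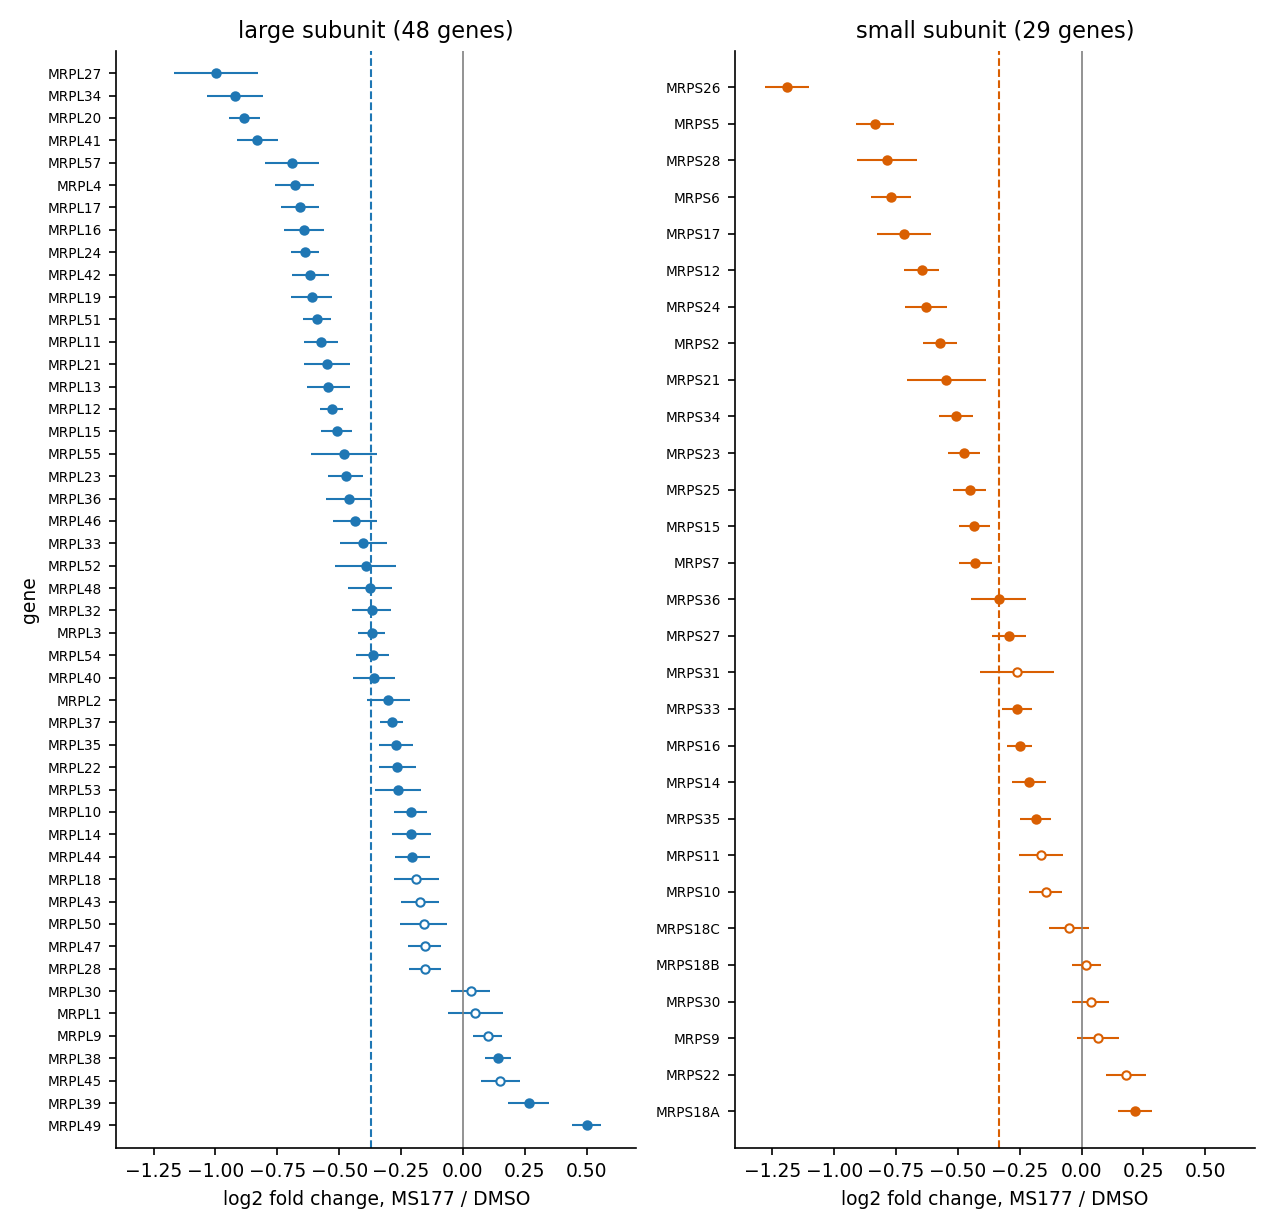
Log2 fold change of MS177 against DMSO for each of the 48 large-subunit (left) and 29 small-subunit genes (right), with bars of 1 SE, filled points for called genes and a dashed line at the subunit median. The medians of -0.37 and -0.34 lie close together, and MRPS26 at -1.19 and MRPL49 at 0.50 mark the ends.

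Among large-subunit genes the lowest ratios belonged to proteins of different places in the particle. MRPL27, whose bacterial counterpart reaches into the centre where peptide bonds form, was 1059 and 951 normalized reads with DMSO and 609.7 and 413 with MS177. It stood at 994 and 1021 with MS177N1 and at 1083.5 and 912 with C24, so that only the MS177 libraries were low, and they differed from each other. The change was -1.0 (SE 0.17, limma adjusted p = 0.00105), a level 2.0-fold lower. MRPL34, a small protein that binds ribosomal RNA, was 2063 and 1826 with DMSO and 1171 and 896 with MS177. In MS177N1 libraries it was 1773 and 1819.8, and in C24 libraries 1976 and 1793, all above the MS177 values. It changed by -0.92 (SE 0.11, limma adjusted p = 4.16e-05). MRPL34 shares 16.5% of its exon bases with ABHD8 on the opposite strand, and ABHD8 was called higher (0.66), so reads of this pair are uncertain where strand was not used in counting.

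MRPL20, whose bacterial counterpart acts early in assembly of the large subunit, had the smallest SE of the 12 genes with the largest changes. It was 2974 and 2714 with DMSO, 1586 and 1494.5 with MS177, 2866 and 2772 with MS177N1 and 2716 and 2888 with C24. Both MS177 values were far below the other 6, a change of -0.88 (SE 0.06, limma adjusted p = 7.34e-09) or 1.84-fold lower. MRPL41, a protein without a bacterial counterpart, was 3359 and 3039 with DMSO and 1991 and 1619.9 with MS177. It was 2941 and 3097 with MS177N1 and 3137 and 3233 with C24, again above both MS177 libraries, and changed by -0.83 (SE 0.08). MRPL57, likewise mitochondria-specific, was 864 and 778 with DMSO and 573 and 449 with MS177. Its MS177N1 values (681 and 721) and C24 values (736 and 657) lay between those of DMSO and MS177. The change of MRPL57 was -0.69 against DMSO, -0.47 against MS177N1 and -0.45 against C24.

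MRPL4, which lines the exit tunnel, was 4091 and 3679 with DMSO and 2669 and 2198 with MS177. With MS177N1 it was 3732 and 3885 and with C24 it was 3719.5 and 3737, so the 6 libraries without MS177 lay close together. The MS177 change was -0.68 (SE 0.08, limma adjusted p = 6.56e-06). MRPL17, near the tunnel exit, was 1694 and 1495 with DMSO and 1079 and 941 with MS177. It was 1610.4 and 1545 with MS177N1, and with C24 it was 1801 and 1859, the highest of the 8 libraries. The change was -0.66 against DMSO and -0.86 against C24.

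The stalk that recruits translation factors is built by MRPL10, MRPL11 and MRPL12. MRPL12, which also binds the mitochondrial RNA polymerase, was the large-subunit gene with the highest DMSO level per length (5121 normalized reads per kilobase of transcript). It was 5326 and 5203 normalized reads with DMSO, 3723 and 3569 with MS177, 4978 and 5124 with MS177N1 and 5248 and 5214 with C24. Replicates differed little and the MS177 libraries stood apart, with a change of -0.53 (SE 0.05, limma adjusted p = 1.11e-07). MRPL11 and MRPL10, at the base of the stalk, were also called lower, by -0.57 and -0.21. MRPL37, without a bacterial counterpart and the next highest per length (4270.1 per kilobase), was 6382.5 and 6283 with DMSO and 5119 and 5251 with MS177. Its change of -0.29 (SE 0.05, limma adjusted p = 6.73e-05) was smaller. At the other end of the scale per length, MRPL50 (168 per kilobase) changed by -0.16 and was not called. MRPL42 (84.6 per kilobase, over an annotated transcript of 15.6 kilobases) was 1281 and 1355.5 normalized reads with DMSO and 804 and 918 with MS177, a called change of -0.62. The highest and lowest genes per length thus included both larger and smaller changes.

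In the small subunit MRPS26, a protein found only in mitochondrial ribosomes, showed the lowest ratio of all 77 genes. It was 1527 and 1318 normalized reads with DMSO and 674 and 571 with MS177. With MS177N1 it was 1287 and 1387 and with C24 it was 1466 and 1465, so the 6 libraries without MS177 lay at about the same level. The change was -1.19 (SE 0.09, limma adjusted p = 1.54e-08), a level 2.28-fold lower, and it was -1.11 against MS177N1 and -1.24 against C24. MRPS5, near the path of the messenger RNA, was 1797 and 1741 with DMSO and 1089.8 and 903 with MS177. Its values with MS177N1 (1730 and 1773) and with C24 (1789.6 and 1793) matched DMSO closely, and the MS177 change was -0.83 (SE 0.08, limma adjusted p = 1.78e-07).

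MRPS28, a further protein with a bacterial counterpart, was 318 and 358.6 normalized reads with DMSO, 191 and 200.1 with MS177, 349 and 303 with MS177N1 and 338 and 359.45 with C24. The groups with and without MS177 did not overlap, and the change was -0.79 (SE 0.12, limma adjusted p = 3.85e-05). MRPS6, whose bacterial counterpart binds the small ribosomal RNA, was 1132.5 and 1021 with DMSO and 667 and 595 with MS177. It was 1115 and 1124 with MS177N1 and 1256 and 1342 with C24, so that both C24 libraries lay above DMSO. The change with MS177 was -0.77 against DMSO and -1.04 against C24. MRPS6 shares 17.8% of its exon bases with SLC5A3, an inositol transporter gene on the same strand that was called lower (-0.95), so its reads are uncertain. MRPS17, another RNA-binding protein, was 678 and 536 with DMSO, 369.7 and 363 with MS177, 609.5 and 547 with MS177N1 and 635 and 635 with C24. Its DMSO libraries differed more from each other than its other pairs, and the change was -0.72 (SE 0.11, limma adjusted p = 3.21e-05).

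MRPS24 and MRPS34 had the highest DMSO levels per length in the small subunit (5546 and 5532 normalized reads per kilobase). MRPS24, at the entry of the messenger RNA channel, was 4212 and 3630.2 normalized reads with DMSO and 2781 and 2304.5 with MS177, a change of -0.63. MRPS34, a mitochondria-specific protein, was 5981 and 5348 with DMSO and 4305 and 3676.5 with MS177, a change of -0.51. Both MS177 libraries were below the other 6 for each gene. MRPS11 and MRPS31, lowest per length, changed by -0.16 and -0.26 and were not called. Levels per length rest on a single annotated transcript per gene. For MRPS11 it is 3.6 kilobases long, and the gene had 1055 and 941 normalized reads with DMSO. MRPS31 has near-identical pseudogene copies that are also listed, so its reads are uncertain.

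**Figure D3:**
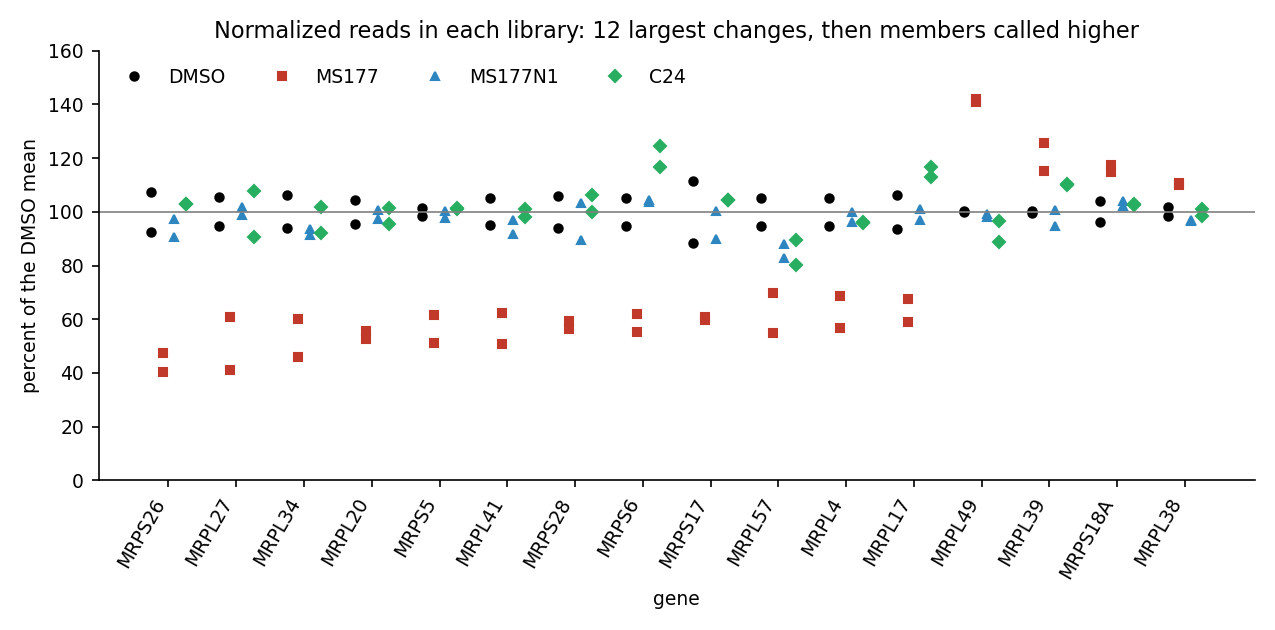
Level in each of the 8 libraries as a percent of the DMSO mean, for the 12 genes with the largest called changes and the 4 genes called higher with MS177. In the 12, the MS177 libraries lie below the other 6, and MRPL49 is the gene whose MS177 libraries are farthest above.

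Against this direction, 4 genes were called higher with MS177. MRPL49, a mitochondria-specific large-subunit protein, was 2114 and 2105 normalized reads with DMSO and 2997 and 2970.4 with MS177. It was 2095 and 2073 with MS177N1 and 2039 and 1870.2 with C24, so the MS177 libraries were the highest by a wide margin. The change was 0.50 (SE 0.06, limma adjusted p = 1.94e-06), or 1.41-fold. MRPL49 shares 5.3% of its exon bases with FAU on the opposite strand, whose product is a cytosolic ribosomal protein, and FAU was called lower (-0.30). MRPL39 was 589.9 and 585 with DMSO, 737 and 676 with MS177, 556 and 592 with MS177N1 and 649 and 647 with C24. The C24 libraries lay between DMSO and MS177, and the change of 0.27 against DMSO (limma adjusted p = 0.013) was 0.12 and not called against C24. Against DMSO it was lost without MS177 replicate 1 (limma adjusted p = 0.0937). MRPS18A was 1116 and 1032.5 with DMSO, 1261 and 1234.5 with MS177, 1097 and 1117 with MS177N1 and 1106 and 1102 with C24. Its change of 0.22 (limma adjusted p = 0.0128) did not pass without DMSO replicate 2 (limma adjusted p = 0.103), and 56.9% of its exon bases overlap RSPH9, a gene with few reads that was not called. MRPL38 was 2176 and 2252 with DMSO and 2432.5 and 2453 with MS177, a change of 0.14 (limma adjusted p = 0.034). It was lost without DMSO replicate 1 (limma adjusted p = 0.15), without MS177 replicate 2 (0.0726) and without any 1 library of MS177N1 or C24 (0.0528 to 0.0579).

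Names do not always follow position in the particle. From structural work, MRPS30 and MRPS18A sit in the large subunit, and MRPS36 is now regarded as a part of the alpha-ketoglutarate dehydrogenase complex. MRPS18A, MRPS18B and MRPS18C are the 3 relatives of a single bacterial small-subunit protein, and none of them was called lower against DMSO. MRPS18B was 1784 and 1836 normalized reads with DMSO and 1845 and 1823 with MS177, a change of 0.02 with a 95% interval of -0.11 to 0.14. MRPS18C shares 78.9% of its exon bases with ABRAXAS1, a coding gene on the opposite strand that is not listed under that name. Its reads are thus uncertain where strand was not used in counting. MRPS18C was 1220.6 and 1029 with DMSO and 1131.6 and 1035 with MS177, which overlapped (-0.05). It was lower than with C24 (1302 and 1283), by -0.26 (limma adjusted p = 0.0139), a call lost without MS177 replicate 2 or either C24 library (0.0602 to 0.08). Against MS177N1 it was called without either DMSO library (limma adjusted p = 0.0311 and 0.0302) or MS177 replicate 1 (0.0214). MRPS30 was 1268 and 1306.5 with DMSO and 1288 and 1352 with MS177 (0.04, 95% interval -0.12 to 0.20). MRPS36 was 502 and 440.3 with DMSO and 377 and 368 with MS177, a change of -0.34 (limma adjusted p = 0.0182, and 0.155 without DMSO replicate 1). When genes were assigned by position, with 6 mitoribosomal proteins of other names added, the small subunit had 23 of 30 called lower (median -0.43). The large subunit then had 38 of 52 called lower (median -0.37) and held all 4 genes that were called higher.

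The 17 genes that were not called comprised 9 of the large and 8 of the small subunit. In the large subunit these were MRPL1, MRPL9, MRPL18, MRPL28, MRPL30, MRPL43, MRPL45, MRPL47 and MRPL50, with changes from -0.19 (MRPL18) to 0.15 (MRPL45). In the small subunit they were MRPS9, MRPS10, MRPS11, MRPS18B, MRPS18C, MRPS22, MRPS30 and MRPS31, from -0.26 (MRPS31) to 0.18 (MRPS22). Without MS177 replicate 1, MRPL18, MRPL43, MRPS10 and MRPS11 were called lower (limma adjusted p = 0.00693, 0.00554, 0.02 and 0.0136), and without MS177 replicate 2 MRPL9 was called higher (0.0145). MRPL45, at the tunnel exit where the particle meets the membrane, was 892 and 795 normalized reads with DMSO and 938 and 933 with MS177. Its neighbour at the exit MRPL24 changed by -0.64 (limma adjusted p = 1.05e-07), and MRPL22 and MRPL23 by -0.27 and -0.47, of which MRPL22 was lost without DMSO replicate 1 (limma adjusted p = 0.0674). In the decoding region MRPS12 changed by -0.65 (limma adjusted p = 9.02e-07), but it shares 21.5% of its exon bases with SARS2 on the opposite strand, itself called lower. In all, 12 of the 77 genes share at least 5% of their exon bases with another listed coding gene.

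The comparisons of MS177 with MS177N1 and with C24 asked whether the difference from DMSO was also present against 2 compounds that, from background knowledge, do not degrade EZH2. All 3 comparisons share the MS177 libraries, so their values are given side by side. Against MS177N1, 54 of the 77 genes were called lower and 6 higher, where all genes tested gave 28.6% and 28.8%. The median was -0.33 for the large and -0.34 for the small subunit. Against C24, 57 were called lower and 4 higher, where all genes tested gave 29.0% and 29.1%. The medians were -0.42 and -0.37. Counts of higher genes were less firm, since against MS177N1 they ranged from 3 to 6 and against C24 from 1 to 4 when a library was left out. MRPL49 was called higher in each, by 0.52 against MS177N1 and 0.61 against C24, beside 0.50 against DMSO. MRPS9, which was not called against DMSO (0.07), was higher than with MS177N1 (0.27) and C24 (0.22), its levels being 659 and 704 normalized reads with MS177, 574 and 557 with MS177N1 and 595 and 574 with C24. MRPL45 was called higher against MS177N1 only (0.21). Neither call of MRPS9 held without MS177 replicate 2 (limma adjusted p = 0.0766 and 0.165), that against MS177N1 was lost without MS177N1 replicate 2 (0.0835) and that against C24 without any 1 library of MS177N1 or C24 (0.0523 to 0.16). MRPL45 was lost without any 1 library of MS177 or MS177N1 (0.0553 to 0.162), and was called higher against DMSO without DMSO replicate 1 (0.0396).

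Some genes were called in 1 or 2 of these comparisons. MRPL14 was 2177 and 1881 normalized reads with DMSO, 1890.3 and 1624.5 with MS177, 1896 and 1923.5 with MS177N1 and 2108 and 2122 with C24. Its DMSO and MS177 libraries overlapped, and it was called against DMSO (-0.21, limma adjusted p = 0.0324) and C24 (-0.27) but not against MS177N1 (-0.12). MRPL53 and MRPL44 were called only against DMSO (-0.26 and -0.20), with -0.12 and -0.03 against MS177N1. Without MS177 replicate 1, MRPL53 was also called lower against MS177N1 (-0.24, limma adjusted p = 0.0298) and C24 (-0.29, limma adjusted p = 0.00922). MRPL44 was 1071 and 1143 with DMSO, 984 and 938 with MS177, 999 and 969 with MS177N1 and 1015 and 1061 with C24, so that MS177N1 lay near MS177. Against DMSO none of the 3 passed without MS177 replicate 2 (limma adjusted p = 0.286 for MRPL14, 0.203 for MRPL53 and 0.0949 for MRPL44). MRPL14 (0.343) and MRPL53 (0.185) were also lost without DMSO replicate 1, MRPL44 without DMSO replicate 2 (0.14), and MRPL14 without any 1 library of MS177N1 or C24 (0.0537 to 0.0563). The call of MRPL14 against C24 was lost without MS177 replicate 2 (limma adjusted p = 0.0752) or C24 replicate 2 (0.0511), and against MS177N1 it was called without MS177 replicate 1 (0.0122). MRPL18, at the central protuberance, was lower than MS177N1 (-0.25) and C24 (-0.43) but not called against DMSO (-0.19, limma adjusted p = 0.0934). It was called against DMSO without DMSO replicate 2 (limma adjusted p = 0.0371) and lost against MS177N1 without MS177 replicate 2 (0.282) or either MS177N1 library (0.0667 and 0.181). MRPL43 was called only against C24 (-0.31), against -0.17 relative to DMSO, and shares 25.3% of its exon bases with SEMA4G, a gene with few reads. Without MS177 replicate 1 it was also called against MS177N1 (limma adjusted p = 0.0071).

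**Figure D4:**
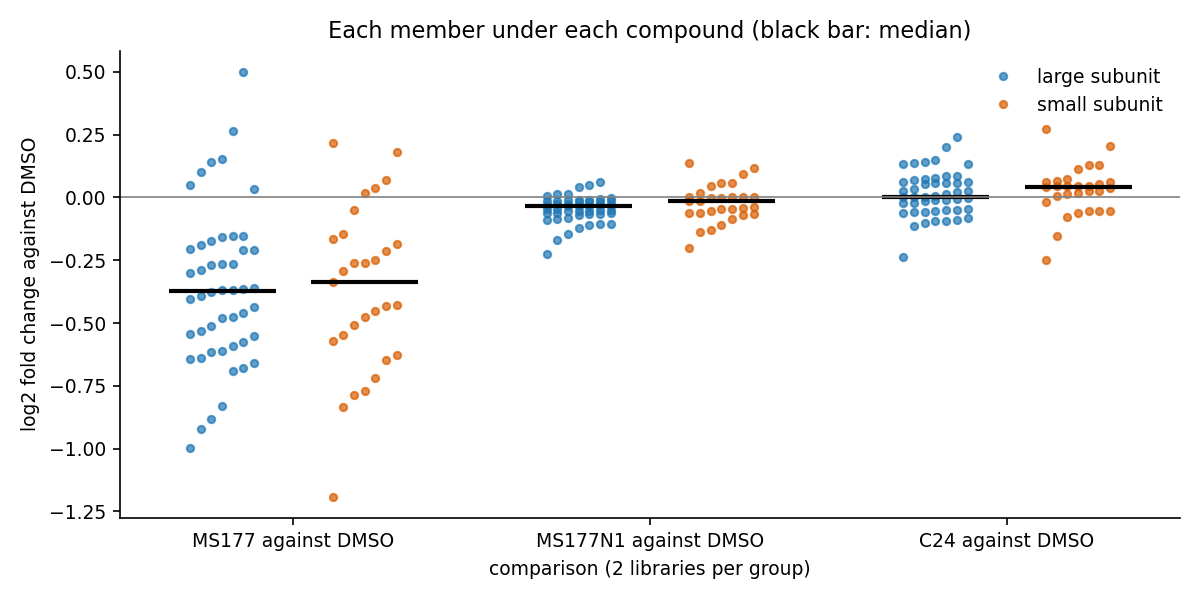
Log2 fold change against DMSO of each gene (dots) for MS177, MS177N1 and C24, with black bars at the medians of the large and small subunits. The medians of MS177 are -0.37 and -0.34, and those of MS177N1 (-0.03 and -0.01) and C24 (0.00 and 0.04) lie near 0.

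MS177N1 and C24 gave no called change in any of the 77 genes against DMSO. The limma counts were 0 lower and 0 higher for both, where 0.0353% (MS177N1) and 0.0918% (C24) of all genes tested were called in either direction. Counts over the 77 were also 0 with voom weights on the recovered reads. At an unadjusted limma p under 0.05 there were 2 genes with MS177N1 (MRPL44 and MRPS9) and 5 with C24 (MRPL17, MRPL18, MRPL57, MRPS6 and MRPS18C). Over all 14164 genes tested the same threshold gave 718 with MS177N1 and 762 with C24, so these genes do not stand out by number. The median change with MS177N1 was -0.03 for the large and -0.01 for the small subunit, and with C24 it was 0.0037 and 0.04. Single genes were bounded less tightly, since their 95% intervals reached from -0.46 to 0.43 with MS177N1 and from -0.57 to 0.51 with C24. The largest shift with C24 was that of MRPS6 (0.27, SE 0.08, 95% interval 0.10 to 0.44, limma adjusted p = 0.639), which was called only when p-values were adjusted over all 6 comparisons together. C24 against MS177N1 gave 0 called genes of the 77, with 0.0141% of all genes tested called. At an unadjusted limma p under 0.05 there were 4 of the 77, and 634 of all 14164 genes tested. The lack of calls does not show that these groups are alike within those intervals. The 3 compounds were compared at 1 dose and 1 time in 6 pairs of groups, and p-values were adjusted within each pair.

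Other components of mitochondrial translation were described from lists, to be read against the 29.0% of all genes tested that were called lower and the 28.9% called higher. The 6 mitoribosomal proteins with other names were all called lower with MS177 against DMSO, with a median of -0.42. GADD45GIP1, a large-subunit protein also known as CRIF1, was 3403 and 3058 normalized reads with DMSO and 2206 and 1838 with MS177 (-0.68, limma adjusted p = 4.16e-05). The small-subunit proteins AURKAIP1 and CHCHD1 changed by -0.52 and -0.44. Of 25 factors for assembly of the particle and modification of its RNA, 13 were called lower (52%) and 4 higher (16%), with a median of -0.18. RBFA, which helps mature the small subunit, was 926 and 702 with DMSO and 524 and 483 with MS177 (-0.68), MTERF3 changed by -0.61 and METTL17 by -0.59. GTPBP10, a GTPase of large-subunit assembly, was called higher (0.58). Of 16 translation factors, 7 were called lower (43.8%) and 2 higher (12.5%), with a median of -0.10. SLIRP, a partner of the messenger RNA stabiliser LRPPRC, changed by -0.70, the initiation factor MTIF3 by -0.54 and the elongation factor GFM1 by -0.49.

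Of 12 genes for mitochondrial transcription and RNA processing, 8 were called lower (66.7%) and 1 higher (8.33%). PNPT1, the mitochondrial polynucleotide phosphorylase, was 1287 and 1373 normalized reads with DMSO and 769 and 821 with MS177 (-0.74, limma adjusted p = 2.2e-07). SUPV3L1, the RNA helicase that acts with it in RNA decay, was 886 and 974 with DMSO and 1419.9 and 1478 with MS177, a change of 0.64 (limma adjusted p = 3.5e-06). The partners of this RNA-degrading complex thus changed in opposite directions. ELAC2, which cuts transfer RNA 3' ends, changed by -0.50 and the RNA polymerase POLRMT by -0.38.

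The ribosomal RNAs of the particle did not follow the messenger RNAs for its proteins. MT-RNR1, of the small subunit, was 5355.6 and 5978 normalized reads with DMSO, 6419 and 7141.6 with MS177, 4504 and 4846 with MS177N1 and 4718 and 4423 with C24. It was highest with MS177 and lowest with the other compounds, and the change with MS177 was 0.26 (limma adjusted p = 0.00321). MT-RNR2, of the large subunit, was 44509 and 48009.5 with DMSO and 49786 and 59879 with MS177, a change of 0.24 (limma adjusted p = 0.0279). How ribosomal RNA was removed, or messenger RNA selected, is not given in the sources used here, and such steps affect these levels. The 13 messenger RNAs that the particle translates were lower with MS177 in 10 called cases (median -0.51), with MT-ND6 (-0.77), MT-ATP6 (-0.72) and MT-ND5 (-0.71) in the lead. MT-ATP6, a subunit of the ATP synthase, was 24482 and 23244 normalized reads with DMSO, 14227 and 14745 with MS177, 18736 and 20553 with MS177N1 and 17457 and 17115 with C24. For MT-ATP6 all 3 compounds lay below DMSO, with MS177 lowest. The order differed between messenger RNAs, and MT-ND1 and MT-CO1 were lowest with C24. MS177 against C24 gave 3 of the 13 called lower (23.1%) and 2, MT-ND1 (0.27) and MT-CO1 (0.16), called higher (15.4%). The median was -0.05, and all genes tested gave 29.0% lower and 29.1% higher, so neither share exceeded that of all genes. Against the same DMSO libraries, C24 gave 9 messenger RNAs called lower (median -0.47), where all genes tested gave 0.0706% lower. MS177N1 gave 4 (median -0.30), where all genes tested gave 0.0353% lower. The number for MS177N1 was 2 with scaling to total reads and 7 with upper-quartile scaling. With length and GC content regressed out it was 0 (limma, with 10 at an unadjusted p under 0.05). In that setting C24 against DMSO had 6 of all 13027 genes tested called lower, so not all 9 were called.

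Cytosolic ribosomal proteins served as a family of like function outside mitochondria. Of 79 tested, 36 were called lower with MS177 against DMSO (45.6%) and 1 higher, with a median of -0.13 and a range of -0.43 to 0.11. Their direction depended on the processing. With scaling to total reads 15 were called lower and 3 higher, and with transcript length and GC content regressed out 13 were lower and 24 higher (median 0.02). The 77 mitochondrial ribosomal protein genes gave 49 lower and 7 higher under the first of these and 49 lower and 8 higher under the second, so their direction was the same in both. Over all genes, scaling to total reads gave 3443 of 14164 called lower and 4761 higher, and moved the median to 0.09. With length and GC content regressed out, 4191 of 13027 were called lower and 4138 higher.

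**Figure D5:**
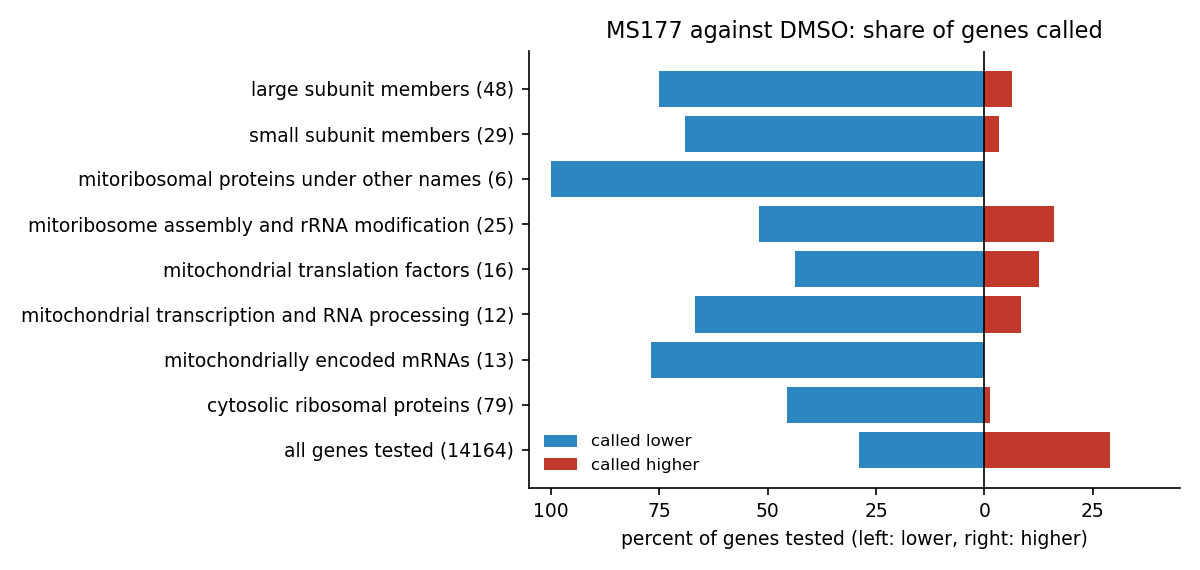
Percent of genes called lower (left of 0) and higher (right of 0) with MS177 against DMSO, by limma adjusted p under 0.05, for both subunits, the related lists and all genes tested. The subunits, at 75% and 69% lower, lie above cytosolic ribosomal proteins at 45.6% and all genes at 29.0%.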

How the data were processed

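RNA-seq values of 8 libraries were analysed. Libraries were made from total RNA with a NEBNext Ultra II kit, per the labels' protocols. The submitters' processing notes name hg19, STAR 2.4.2, Salmon 0.1.19 and DESeq2 1.38.2, without roles, and whether counting used strand is not given in the sources used here. The authors deposited normalized log2 values for 16295 genes, per the file headers. Judged by their values, these are on a variance-stabilized scale with a minimum of 5.967655733 for 0 reads. Differences on it understate the folds of low genes, so the transformation was inverted. All 130360 of 130360 values came out as whole reads within 0.01.

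A gene was tested where 2 or more libraries had 10 or more reads, scaled to the median library, and all libraries together had 15 or more. This kept 14164 genes and left out 2131. Log2 of normalized reads plus 1 was fitted with limma 3.58.1 (trend and robust, statmod 1.5.0, R 4.3.3), all 4 groups in 1 fit, after a check on simulated data. The deposited values are not counts, and the limma fit used the reads recovered from them. P-values were adjusted by the Benjamini-Hochberg method over all genes tested in each of 6 comparisons.

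Genes named are the 12 largest called changes without overlap, called genes against the majority, members with a second role or position, the highest and lowest per length, those called in only some comparisons of MS177, and the 3 largest of each list. Others (genes of the tunnel exit, the decoding region and the stalk, the genes not called, POLRMT, GTPBP10, HBB, EPCAM, KRT18, COL1A2, XBP1, MT-ND1, MT-CO1, MRPS9, MRPL45 and genes sharing exons) were named after their values were seen. The members and lists were chosen with earlier results of these data known. Transcript lengths, GC content and exon sharing are from GENCODE v29 on GRCh38, another build than that of the files. Promoter windows are RefSeq's on GRCh38.p14. Alternatives were other scalings, pseudocounts and filters, the deposited values, voom, a replicate block, removal of length and GC trends, other adjustments and fits, and leaving out each library.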

Additional observations from a re-analysis of the deposited data

How the results depend on the processing

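With scaling to total reads, members called higher numbered 7 against DMSO and 7 against C24. In that setting 4761 and 4796 of the 14164 genes tested were called higher. The large- and small-subunit medians were then -0.2875 and -0.2510 against DMSO, -0.2543 and -0.2629 against MS177N1 and -0.3295 and -0.2879 against C24. With transcript length and GC content regressed out, members called higher numbered 8 against DMSO and 9 against C24, and the large-subunit median against DMSO was -0.2363. Of the 13027 genes tested there, 4138 and 4171 were called higher. The large and small medians were -0.1849 and -0.2422 against MS177N1 and -0.2604 and -0.2965 against C24 in that setting. On the deposited log2 values the small-subunit median against MS177N1 was -0.2678. Assigning subunits by position gave a small-subunit median of -0.4312 against DMSO. With p-values adjusted over all 6 comparisons, members called higher with MS177 against C24 numbered 1, and 1 member, MRPS6, was called higher with C24 against DMSO. Over all 14164 genes tested these counts were 3729 and 93. With only the compared groups in the fit, members called higher against C24 numbered 1, beside 4081 of all 14164 genes tested. The causes of these shifts were not tested. Leaving out a library gave large-subunit medians of -0.4991 (without MS177 replicate 1) to -0.2925 (without MS177 replicate 2) against DMSO, -0.4339 to -0.2384 against MS177N1 and -0.4858 to -0.3083 against C24. It gave 3 to 6 members called higher against MS177N1 and 1 to 4 against C24. Against C24 the 1 came without MS177 replicate 2 or any 1 library of MS177N1 or C24. Members called lower against DMSO numbered 46 (without DMSO replicate 1) to 59 (without MS177 replicate 1) over all settings. No single member reversed under these alternatives. Differences between replicates correlated by -0.062 to 0.06 over the 6 pairs of groups, which does not settle whether replicate numbers pair the samples. Summed reads of the members were lower in replicate 2 with DMSO (134650 and 127836), MS177 (105238 and 97621) and C24 (133403 and 131203). With MS177N1 they were not (127925 and 128010). A replicate effect shared by some groups was not tested. With the replicate block, 57 members were called lower and 4 higher against DMSO, beside 4174 and 4125 of all 14164 genes tested. The median SE of a member's change was 0.0778, which limits what 2 libraries per group can show.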
